A study of Mus musculus with 12 samples.

Results

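The day 7 comparison sets the healing ear of LG/J mice against that of SM/J mice, using 6 of the 12 arrays of the series. The arrays were chosen by their labels alone: 3 arrays of LG/J ear tissue taken from around an ear punch 7 days after the injury, and 3 arrays of SM/J ear tissue taken from the same place at the same time. The other 6 arrays are uninjured ear, 3 of LG/J and 3 of SM/J, and show whether a strain difference at day 7 was also there before injury. They also enter the normalization and the common estimate of spread of the fit. All 4 groups are total RNA of whole ear tissue on Illumina bead arrays; the labels give neither sex nor age, no treatment other than the punch, and do not say whether an array is 1 animal or a pool. They also do not say that arrays came from separate animals, so p-values measure only the spread between these samples, which may be technical.

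LG/J and SM/J are inbred mouse strains that were derived from lines selected for large and small body size. A hole punched in the ear of an LG/J mouse closes to a large degree, with regrowth of skin and cartilage, and SM/J mice close it poorly, so the pair is used to map genes of regeneration. Around a punch, keratinocytes at the edge take on a wound program, neutrophils and macrophages enter, fibroblasts lay down a provisional matrix and become contractile, and vessels, nerve and cartilage regrow to different degrees. In a comparison of inbred strains, a probe designed on one genome can also bind a sequence variant of the other strain less well, and whether a difference of 1 probe lies in the transcript level or in the match of the probe cannot be told apart here, since probe sequences were not used.

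The 6 arrays had median signals between 95.9 and 118 in units of intensity, and 52.4% to 54.4% of probes exceeded a background limit (5.77 to 5.83 on the normalized log2 scale). All levels below are normalized log2 intensities of 1 probe. Correlations between arrays were at least 0.9899 within LG/J and 0.9886 within SM/J at day 7, and 0.9462 to 0.9624 between the strains. The first principal component of the 6 arrays held 76.7% of the variance and parted the strains. The markers of ear skin were high in both strains: the basal keratins Krt14 and Krt5 averaged 15.47 and 13.13 in LG/J, against 15.55 and 13.09 in SM/J. Cartilage, muscle, fat, nerve, pigment cell and blood markers (Acan, Acta1, Adipoq, Mbp, Dct and Hba-a1) lay above the limit on all 6 arrays, so the tissue is a mixture. In such bulk tissue, fewer cells of a type and less RNA per cell cannot be told apart. Xist was high (11.62 to 12.29) and the Y-linked gene Uty low (6.21 to 6.67) on all 6 arrays.

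The strains differed at many genes at day 7, by less than 2-fold for most of them. Of 33960 probes tested, 4457 were higher in LG/J (13.1%) and 4084 were lower (12%) by limma with Benjamini-Hochberg adjustment (adjusted p under 0.05), together 8541 (25.2%). A fit of the 6 day 7 arrays alone called 11866 probes. With each of the 14218 named genes represented by its brightest probe, 2773 genes were higher in LG/J (19.5%) and 1614 were lower (11.4%), together 4387 (30.9%). All 3 LG/J arrays lay above all 3 SM/J arrays for 5201 genes (36.6%) and below them for 3073 (21.6%). The median absolute difference of the called genes was 0.72 on the log2 scale. By brightest probe, 537 genes were called and at least 2-fold higher (3.78%) and 549 lower (3.86%), whereas over all probes 802 were at least 2-fold higher (2.36%) and 1552 lower (4.57%). The median over all genes was 0.128, so that a list of genes with a median near this value did not stand off from the rest. Leaving out LG/J day 7 replicates 1 or 2 or SM/J day 7 replicates 1 or 2 lowered the 4387 called genes to 2860, 2510, 2548 and 2811. Scaling each array to 1 median in place of quantile normalization raised the median over all genes to 0.204, and the share of called genes that were higher in LG/J to 73.6% from 63.2%.

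The 12 genes with the largest positive difference were bright in LG/J, and for some of them the SM/J arrays lay near or below the background limit. Car13, a cytosolic carbonic anhydrase, had levels of 12.31, 12.27 and 12.15 in LG/J, against 5.58, 4.84 and 6.04 in SM/J. Emb, embigin, a membrane partner of lactate transporters, had levels of 12.71, 12.97 and 12.75 in LG/J, against 6.76, 6.31 and 6.71 in SM/J. Csrp1, a LIM-domain protein of smooth muscle and fibroblasts, had levels of 13.14, 13.16 and 13.17 in LG/J, against 7.81, 7.57 and 7.73 in SM/J. For each of these genes the strains lay far apart and the arrays of a strain close together, and the differences were 6.76 ± 0.24, 6.22 ± 0.27 and 5.45 ± 0.18 on the log2 scale (SE, n = 3 arrays per strain; limma adjusted p = 5.13e-10, 3.27e-09 and 2e-10). Ptprb, the endothelial tyrosine phosphatase that restrains the Tie2 receptor, was below the background limit on all 3 SM/J arrays and at least 21.2-fold higher in LG/J. The tight junction gene Cldn12 and Mettl14, a subunit of the RNA adenosine methyltransferase, were likewise at least 13.5-fold and 15.6-fold higher. Tpsab1, a tryptase of mast cell granules, had levels of 12.24, 12.01 and 12.04 in LG/J, against 8.11, 8.01 and 8.43 in SM/J (3.92 ± 0.29, adjusted p = 1.03e-06). The remaining 5 of the 12 were Teddm3 (5.15 ± 0.22), Krtdap (4.85 ± 0.79), Reep3 (4.21 ± 0.26), Slc35e3 (4.19 ± 0.13) and Armc10 (4.13 ± 0.13).

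The 12 genes with the largest negative difference were bright in SM/J, and 8 of them were below the background limit on all 3 LG/J arrays. Calm5, a calmodulin-like gene, had levels of 5.39, 5.33 and 5.30 in LG/J, all below the background limit, against 12.34, 12.19 and 12.36 in SM/J, which makes it at least 89.7-fold lower in LG/J (adjusted p = 4.66e-12). Me1, the cytosolic malic enzyme that supplies NADPH for fatty acid synthesis, was at least 34.8-fold lower, and Sspn, sarcospan of the dystrophin complex, at least 30.1-fold lower. Cptp, a ceramide-1-phosphate carrier, was at least 17.4-fold lower and the inhibitory leukocyte receptor gene Lilrb4a at least 15.9-fold lower. Ctsc, cathepsin C, which activates the serine proteases of neutrophil and mast cell granules, had levels of 7.40, 7.14 and 7.29 in LG/J, against 12.35, 12.26 and 11.93 in SM/J (-4.90 ± 0.22, adjusted p = 4.35e-09). Lipa, the lysosomal acid lipase, had levels of 6.07, 5.24 and 6.25 in LG/J, against 10.88, 10.86 and 10.79 in SM/J (-4.99 ± 0.23, adjusted p = 7.12e-09). Chil3, a secreted chitinase-like protein of macrophages and neutrophils, had levels of 5.73, 5.70 and 6.47 in LG/J, against 11.62, 10.72 and 10.99 in SM/J (-5.15 ± 0.29, adjusted p = 5.03e-08). The strains did not overlap for any of these genes. The other members of the 12 were Cbwd1, 1110059E24Rik and Zfp979, at least 21.2-fold, 25.8-fold and 20-fold lower, and Gsdmc2, which is described below.

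**Figure D1:**
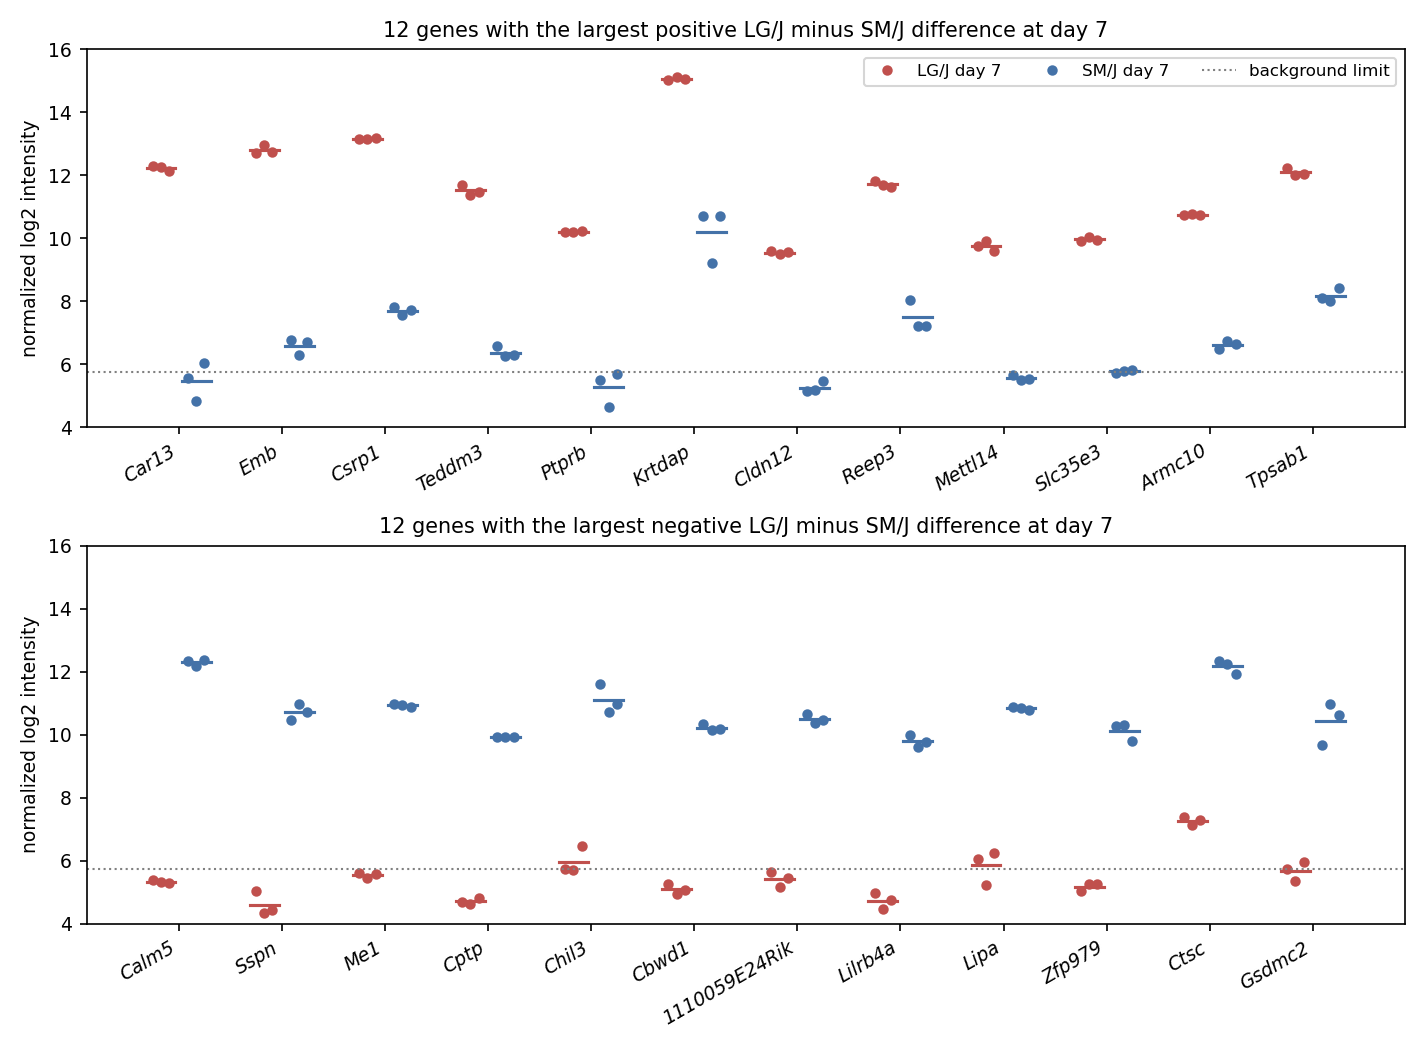
Normalized log2 intensity of the brightest probe on each of the 3 LG/J (left, red) and 3 SM/J (right, blue) day 7 arrays for the 12 genes with the largest positive and the 12 with the largest negative strain difference. Short bars are means and the dotted line is the lowest of the arrays' background limits. The arrays of a strain cluster tightly, with the widest spread for Krtdap in SM/J (9.22 to 10.72).

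In all, 159 called genes were below the background limit on all 3 LG/J arrays only and 141 on all 3 SM/J arrays only. Of these, 14 differed at least 8-fold by that limit, 9 with the low level in LG/J and 5 in SM/J, and 13 of the 14 were also below the limit on all 3 uninjured arrays of the same strain.

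Large strain differences were mostly in place before the punch. Of the 4387 genes called at day 7, 2633 (60%) were called in the same direction between uninjured LG/J and SM/J ears, where 16.1% of all genes were higher and 10.1% lower (26.1% together), and 11 in the opposite direction. A further 1743 genes were not called in uninjured ear, and 1568 of those had the same sign there. Of the 50 genes that differed at least 8-fold at day 7 (0.352% of genes), 47 were called in the same direction in uninjured ear. Emb, for example, had levels of 13.39, 13.28 and 13.85 in uninjured LG/J ear, against 7.18, 6.07 and 6.03 in uninjured SM/J ear. Calm5 had levels of 5.37, 5.08 and 5.53 in uninjured LG/J ear, against 12.63, 12.26 and 12.36 in uninjured SM/J ear. For both genes the uninjured arrays thus gave nearly the day 7 picture. Across genes the day 7 and uninjured strain differences had a Pearson r of 0.85 and a Spearman rho of 0.77 (14218 genes, which are not independent replicates; both differences use the same probes).

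**Figure D2:**
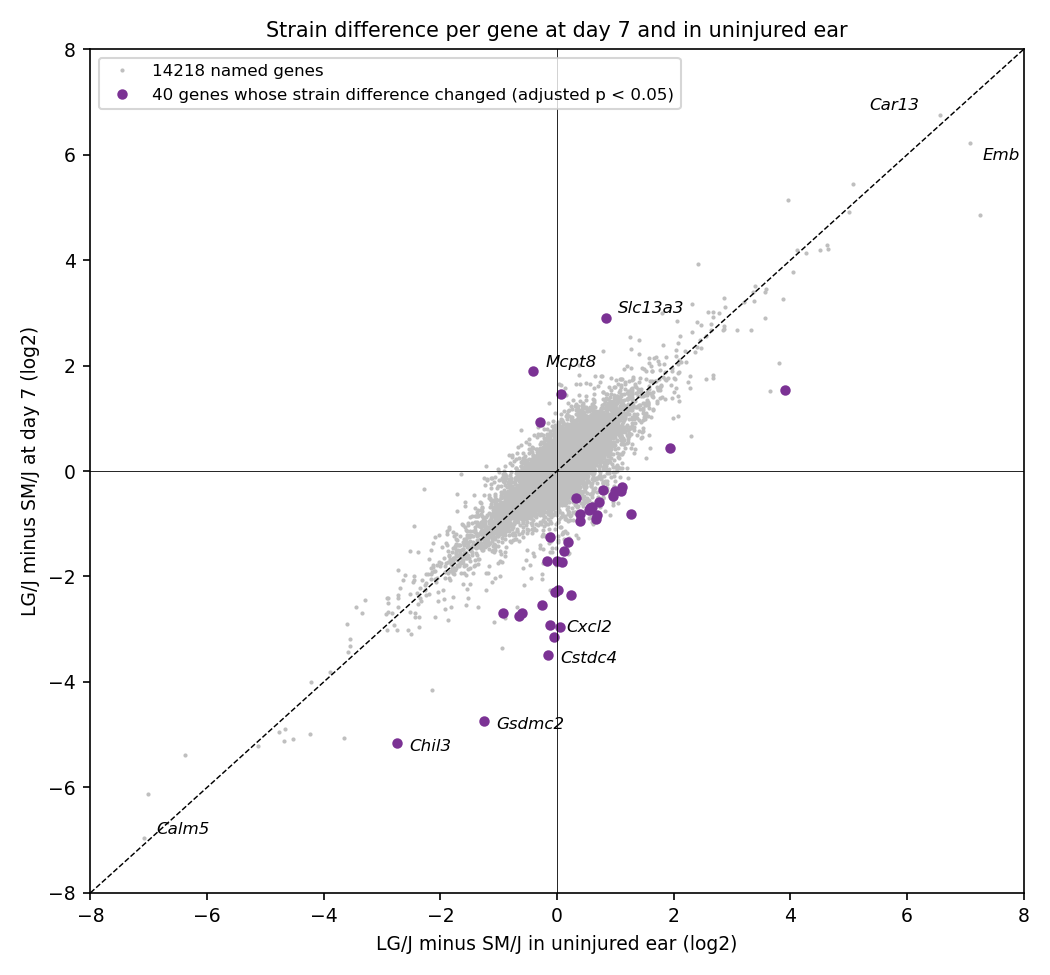
LG/J minus SM/J on the log2 scale for 14218 named genes, in uninjured ear (horizontal axis) and at day 7 (vertical axis). Purple points are the 40 genes whose strain difference was not the same in the 2 conditions by limma's interaction test, 36 of which lie below the dashed line of equality.

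A change of the strain difference between uninjured ear and day 7 was tested as the day 7 difference minus the uninjured difference. Such a change can be a difference that appeared, grew, shrank or turned. It was called for 40 of 14218 genes (0.281%), 36 of them negative (0.253%) and 4 positive (0.0281%), and 1022 genes had an unadjusted p under 0.05. Of the 40 genes, 35 were also called at day 7, 29 of them lower in LG/J, and 22 were not called in uninjured ear. In both conditions 6 were called with the same sign and 7 with opposite signs. Some differences shrank: that of Gldc was 1.93 in uninjured ear and 0.44 at day 7. Among the 36 negative genes, 19 were higher at day 7 than in uninjured ear in both strains, by less in LG/J, and 17 were higher in SM/J and lower in LG/J. The count rests on the arrays: leaving out 1 array gave 9 to 18 genes for each of 10 arrays, 47 without LG/J uninjured replicate 4 and 157 without SM/J uninjured replicate 2, and the fit with the replicate number as a block gave 7. The lean to negative values rests on them as well: estimated array weights called 543 genes, 322 of them negative, and leaving out LG/J uninjured replicate 4 together with SM/J uninjured replicate 2 called 801, of which 366 were negative, fewer than were positive. Gsdmc2, Cstdc4, Prl2c3 and Prl2c4 were the named genes whose call held under all 23 alternatives.

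Gsdmc2 belongs to the gasdermin C family of epithelial pore-forming proteins. It had levels of 5.73, 5.37 and 5.97 in LG/J at day 7, against 9.68, 10.97 and 10.64 in SM/J. In uninjured ear it had 5.47, 4.95 and 5.54 in LG/J, against 6.16, 6.41 and 7.16 in SM/J. The strains thus differed less before injury, when the gene was already called lower in LG/J (adjusted p = 0.0148) with all 3 LG/J arrays below the background limit and all 3 SM/J arrays above it, than at day 7 (interaction -3.49 ± 0.45, adjusted p = 0.00804). A second probe of Gsdmc2 was below the background limit on all 3 LG/J arrays and at least 6.96-fold lower in LG/J.

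Cstdc4, a member of the stefin A family of cysteine protease inhibitors, had levels of 7.58, 6.46 and 7.46 in LG/J at day 7, against 11.17, 10.34 and 10.47 in SM/J. Its uninjured levels of 5.09 to 5.58 in LG/J and 5.07 to 5.69 in SM/J were all below the background limit. It was therefore above background in both strains at day 7 and higher in SM/J (interaction -3.33 ± 0.42, adjusted p = 0.00705). Prl2c3 and Prl2c4 encode proliferins, prolactin-related proteins made by placenta and by growing cultured cells. Prl2c3 had levels of 6.58, 5.72 and 6.16 in LG/J at day 7, against 9.36, 8.64 and 9.23 in SM/J. Prl2c4 had 6.34, 5.50 and 5.48 in LG/J, against 9.12, 8.27 and 8.80 in SM/J. Both were below the limit on all uninjured arrays, and their interactions were -2.79 and -3 (adjusted p = 0.0042 and 0.00357). The proliferin, stefin A and gasdermin C genes have close relatives, and a probe may report more than 1 of them.

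Of the 6 largest negative interactions, Cxcl2 and Saa3 remain, and Cd14 is given beside them as a fixed macrophage marker. Cxcl2, a chemokine that draws neutrophils, had levels of 6.16, 5.73 and 7.58 in LG/J at day 7, against 10.55, 9.19 and 9.14 in SM/J, and a second probe had 5.09, 4.13 and 6.16 in LG/J, against 9.97, 9.25 and 8.77 in SM/J. Saa3, an acute phase protein, had 9.88, 8.63 and 9.67 in LG/J, against 12.25, 11 and 12.02 in SM/J. Cd14, the coreceptor for bacterial lipopolysaccharide on macrophages and neutrophils, had 9.27, 8.76 and 9.21 in LG/J, against 12.25, 11.68 and 11.53 in SM/J. All 3 genes were lower on every LG/J array than on any SM/J array. For each of them the lowest LG/J level was that of replicate 2 and the highest SM/J level that of replicate 1. Their interactions were -3.08, -2.6 and -2.08 (adjusted p = 0.0485, 0.048 and 0.0312), and the calls were lost under 12, 14 and 12 of the 23 alternatives.

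In the opposite direction, Slc13a3, a sodium-coupled carrier of dicarboxylates, had levels of 9.08, 8.57 and 9.11 in LG/J at day 7, against 5.89, 5.90 and 6.23 in SM/J. Its second probe gave 8.25, 7.59 and 8.21 in LG/J, against 5.11, 5 and 4.78 in SM/J. The interaction of that probe was 1.71 and was not called (limma adjusted p = 0.0669). Mcpt8, a protease of basophils, had 7.52, 6.89 and 7.82 in LG/J, against 5.40, 5.82 and 5.33 in SM/J, with uninjured levels of at most 5.45 in either strain. Both genes were high in LG/J at day 7 and their groups did not overlap; the interactions were 2.08 and 2.3 (adjusted p = 0.0312 and 0.0251). Grm4, a metabotropic glutamate receptor (1.41), and the serine protease gene Prss46 (1.22) completed the positive side.

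**Figure D3:**
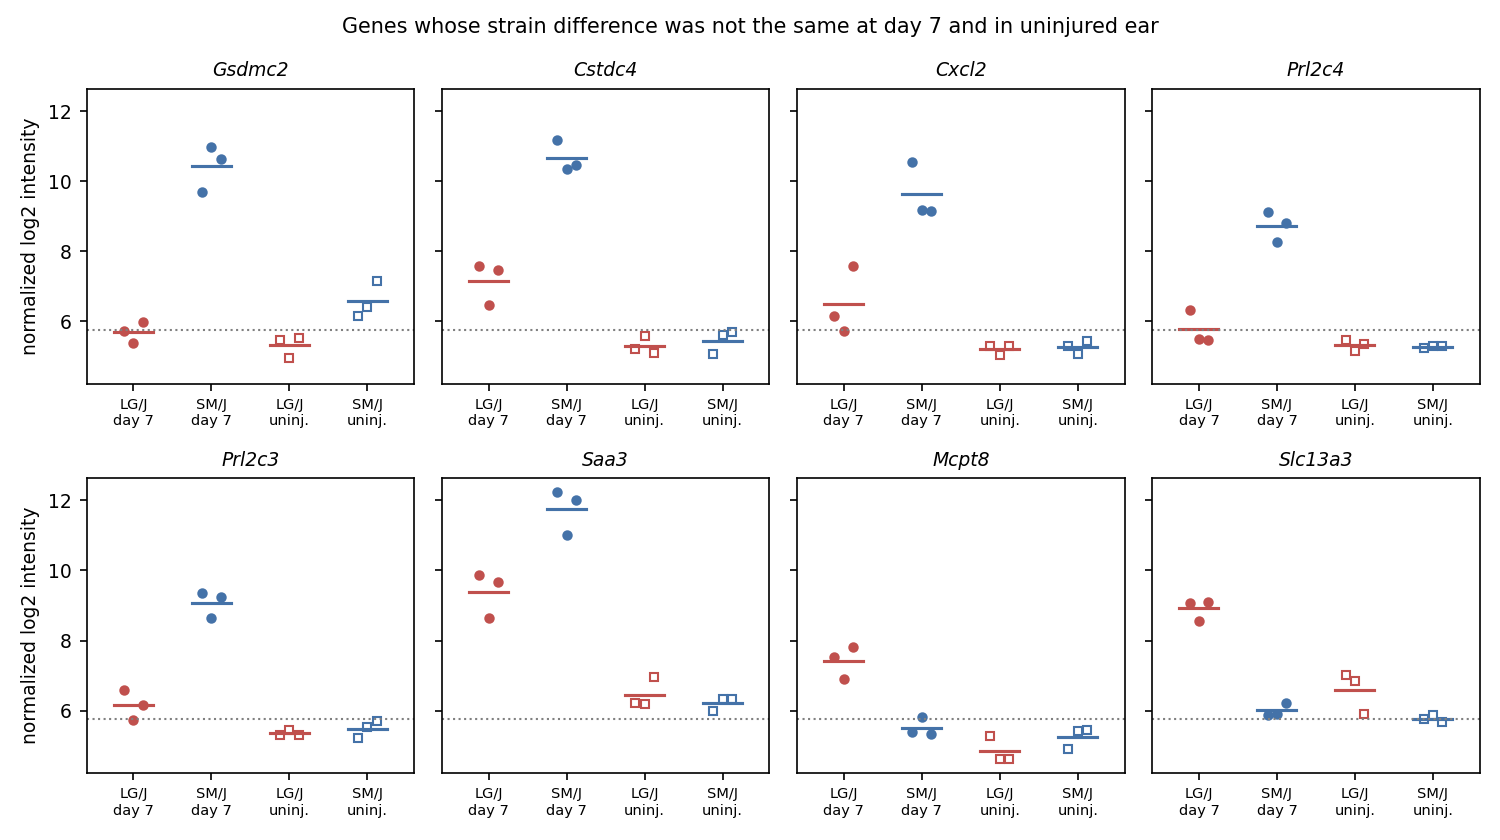
Normalized log2 intensity of 8 genes with a called interaction, on 3 arrays per group, with LG/J in red and SM/J in blue, day 7 as filled circles and uninjured ear as open squares. Short bars are means and the dotted line is the lowest background limit. Gsdmc2, Cstdc4, Cxcl2, Prl2c4, Prl2c3 and Saa3 are highest in SM/J at day 7, and Mcpt8 and Slc13a3 in LG/J at day 7.

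The start regions of the genes with the 6 largest negative interactions are shown so that their sequences can be compared; the genes share that direction because they were chosen for it. RefSeq promoter sequences (GRCm38.p6, 250 bases before to 50 after the gene start) were found for 4 of the 6: Cstdc4 at chr16:36183962-36184261 (+ strand), Cxcl2 at chr5:90903649-90903948 (+), Prl2c3 at chr13:12800030-12800329 (-) and Saa3 at chr7:46715627-46715926 (-). They are of the reference genome and of neither strain. Capitals mark matches, on either strand, of the AP-1 motif TGANTCA and of the NF-kappaB motif, factors of the early wound and inflammatory response.
Cstdc4: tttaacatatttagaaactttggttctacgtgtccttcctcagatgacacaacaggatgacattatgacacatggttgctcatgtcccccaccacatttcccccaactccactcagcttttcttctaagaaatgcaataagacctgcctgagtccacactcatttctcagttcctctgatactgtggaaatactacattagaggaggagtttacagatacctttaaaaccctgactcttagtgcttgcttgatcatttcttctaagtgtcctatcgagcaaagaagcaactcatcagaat
Cxcl2: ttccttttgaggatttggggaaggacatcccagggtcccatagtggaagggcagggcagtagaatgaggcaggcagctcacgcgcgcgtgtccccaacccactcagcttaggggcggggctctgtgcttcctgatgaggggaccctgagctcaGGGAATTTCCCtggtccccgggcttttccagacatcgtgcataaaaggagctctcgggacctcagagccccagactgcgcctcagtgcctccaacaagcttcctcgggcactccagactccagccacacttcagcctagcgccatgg
Prl2c3: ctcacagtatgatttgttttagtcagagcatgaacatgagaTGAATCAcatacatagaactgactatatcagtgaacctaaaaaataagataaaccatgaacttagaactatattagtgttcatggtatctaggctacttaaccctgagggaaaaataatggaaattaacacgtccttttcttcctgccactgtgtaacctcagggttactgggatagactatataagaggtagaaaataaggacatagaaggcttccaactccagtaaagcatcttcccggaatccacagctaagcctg
Saa3: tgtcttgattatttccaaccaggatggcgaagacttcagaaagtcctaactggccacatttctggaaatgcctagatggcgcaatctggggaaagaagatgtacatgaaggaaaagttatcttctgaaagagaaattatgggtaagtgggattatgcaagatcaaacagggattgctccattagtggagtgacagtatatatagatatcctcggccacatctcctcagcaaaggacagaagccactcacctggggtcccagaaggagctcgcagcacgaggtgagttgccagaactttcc
Cxcl2 held a pair of overlapping NF-kappaB matches and Prl2c3 held 1 AP-1 match. No letters of either motif were found in the Cstdc4 and Saa3 windows. Of all 32851 promoters in the table, 7.81% held the AP-1 motif and 8.46% the NF-kappaB motif, so a match in 1 window of 4 is a description only.

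Among fixed gene lists, neutrophil and acute inflammation genes were the most often called. Of 35 measured members, 16 were lower in LG/J and 5 were higher (60% together). Over all genes 11.4% were lower and 19.5% higher (30.9% together). The median difference of the list was -0.61, against 0.128 over all genes. Il1b, the cytokine interleukin 1 beta, had levels of 8.95, 7.31 and 9.57 in LG/J, against 12.53, 11.80 and 11.55 in SM/J (-3.35 ± 0.43, adjusted p = 0.000167). The alarmin genes S100a8 and S100a9, expressed by neutrophils and by injured epidermis, averaged 13.50 and 12.37 in LG/J, against 15.01 and 14.40 in SM/J (adjusted p = 0.00135 and 0.000238). The list did not move as a whole: Mpo, the myeloperoxidase of neutrophil granules, was higher in LG/J by 2.55 ± 0.28 and by 2.55, 2.02 and 0.56 on 3 further probes, and the chemokine receptor Cxcr2 was higher by 2.16 ± 0.15. Csf3r, the receptor for granulocyte growth factor, averaged 8.51 in LG/J and 8.79 in SM/J (adjusted p = 0.464). In uninjured ear the same list had 3 members lower and 7 higher in LG/J. S100a8 was among the lower ones, with a difference of -2.52 there (limma adjusted p = 2.39e-05), against -1.51 at day 7. The uninjured differences were -0.45 for S100a9, -0.94 for Il1b, 1.25 for Mpo and 1.86 for Cxcr2. Without LG/J day 7 replicate 1, 3 members were higher.

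Monocyte and macrophage genes had 14 of 41 members lower in LG/J and 2 higher (39% together). Of all genes, 11.4% were lower and 19.5% higher (30.9% together). Besides Chil3 and Cd14, the lower members included the chemokine genes Ccl3 and Ccl4 and the chitinase-like gene Chil4. Ccl4 had levels of 9.40, 7.96 and 10.1 in LG/J, against 12.53, 11.74 and 11.20 in SM/J (-2.67 ± 0.45, adjusted p = 0.00119). Chil4 had 5.80, 6.37 and 6.41 in LG/J, against 10.76, 9.80 and 10.49 in SM/J (-4.16 ± 0.28, adjusted p = 3.9e-07). Pan-macrophage markers were not called: Adgre1 averaged 10.78 in LG/J and 10.76 in SM/J, and Csf1r averaged 11.56 in LG/J and 11.46 in SM/J (adjusted p = 0.977 and 0.784). In uninjured ear 12 members were already lower in LG/J and 2 higher. Chil4 differed by -2.14 there, and Ccl3 and Ccl4 by -0.57 and -0.65. The interaction was not called for Chil4, Ccl3 or Ccl4 (limma adjusted p = 0.0547, 0.2 and 0.239). The list median of -0.13 became 0.07 with median scaling, and there were 4 higher members without SM/J day 7 replicate 1 and 5 without LG/J uninjured replicate 4.

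Wound keratinocyte genes were lower in LG/J for 12 of 32 members and higher for 1, with a median of -0.43. Of all genes, 11.4% were lower and 19.5% higher. In uninjured ear 5 members of the list were lower and 3 higher. Krt6a, a keratin of the wound edge, had levels of 9.89, 9.46 and 9.56 in LG/J, against 11.42, 11.32 and 10.96 in SM/J (-1.60 ± 0.30, adjusted p = 0.00245), and a second probe gave -1.68 ± 0.30. S100a7a, psoriasin, had 7.10, 6.22 and 6.42 in LG/J, against 8.42, 7.95 and 8.48 in SM/J (-1.70 ± 0.21, adjusted p = 9.43e-05). The groups did not overlap for either gene. Defb4, a beta-defensin of inflamed epithelium, and the interleukin 36 family gene Il1f8 were lower (-1.34 ± 0.25 and -1.46 ± 0.42, adjusted p = 0.00277 and 0.0229, the second ranging up to 0.0726 over the alternatives). In uninjured ear Krt6a already differed by -1.38 and -1.43 on the same probes, and Il1f8 by -1.48. S100a7a and Defb4 differed there by -0.18 and 0.01. Krt16, the partner keratin of the wound edge, averaged 14.79 in LG/J and 14.57 in SM/J at day 7 (adjusted p = 0.515). The matrix glycoprotein Tnc averaged 13.33 in LG/J and 13.47 in SM/J on its brightest probe (adjusted p = 0.594), but 4 of its 7 probes, all dimmer, were called lower in LG/J. The brightest of those had 6.98, 6.54 and 7.16 in LG/J, against 8.76, 9.10 and 8.78 in SM/J (-1.99 ± 0.26, adjusted p = 0.000191). Another gave -1.16 ± 0.19 (adjusted p = 0.00101), and the remaining called probes were below the background limit in LG/J and at least 1.36-fold and 1.22-fold lower there (adjusted p = 0.00164 and 0.0428). The count of 12 became 7 without LG/J day 7 replicate 2, LG/J day 7 replicate 3 or SM/J day 7 replicate 1, and 6 with median scaling.

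The epidermal differentiation list was mixed, with 14 of 58 members higher in LG/J and 7 lower, which were also its counts in uninjured ear. At day 7 these were 36.2% of the list, against 30.9% of all genes (19.5% higher and 11.4% lower). Krtdap, a secreted protein of differentiating keratinocytes, had levels of 15.01, 15.12 and 15.07 in LG/J, against 10.71, 9.22 and 10.72 in SM/J, and a second probe gave 6.73 ± 0.40. Flg2, a filaggrin relative of the cornified layer, was lower on its brightest probe (-1.41 ± 0.35; 0.33 on another, adjusted p = 0.293) and Alox12b, a lipoxygenase of barrier lipids, higher by 1.07 ± 0.24. Without LG/J day 7 replicates 1 or 2 or SM/J day 7 replicates 1, 2 or 3 the higher members numbered 7, 6, 8, 7 and 8, and the lower members numbered 3 without LG/J day 7 replicate 2, SM/J day 7 replicate 1 or SM/J day 7 replicate 2.

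Contractile and myofibroblast genes leaned to LG/J. Of 20 members 8 were higher in LG/J and 0 were lower at day 7 by limma (40% together), with a median of 0.46. Of all genes, 19.5% were higher and 11.4% lower (30.9% together). At an unadjusted p under 0.05 in limma the counts of the list were 9 higher and 0 lower. In uninjured ear 4 members were higher and 2 lower, and the interaction was called for 0 members. Acta2, the smooth muscle actin of myofibroblasts and vessel walls, averaged 14.49 in LG/J and 13.45 in SM/J (1.04 ± 0.21, adjusted p = 0.00392). Myl9, a regulatory myosin light chain, had levels of 11.06, 10.75 and 11.06 in LG/J, against 9.52, 10.00 and 9.32 in SM/J (1.34 ± 0.23, adjusted p = 0.00129). Tagln, transgelin of smooth muscle, had 7.46, 7.55 and 7.63 in LG/J, against 6.43, 6.36 and 6.17 in SM/J (1.23 ± 0.15, adjusted p = 0.000131). The probes of Acta2 differed, with a further probe at 1.17 and others at -0.34 and -0.16 (adjusted p = 0.00384, 0.296 and 0.651), and the value over all its probes was 0.43 (adjusted p = 0.101, the highest over the alternatives).

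Skeletal muscle genes were higher in LG/J for 12 of 53 members (22.6%, against 19.5% of all genes) and lower for 0 by limma, with a median of 0.38 (17 and 2 at an unadjusted p under 0.05). In uninjured ear 29 were higher, and the median of the day 7 minus the uninjured strain difference was -0.40 for this list, against 0.45 for the contractile list. The slow troponin Tnnc1 averaged 12.17 in LG/J and 10.41 in SM/J (1.76 ± 0.34, adjusted p = 0.00322). Before injury Tnnc1 already differed by 2.67, and Tnnc2 and Acta1 by 0.72 and 0.84. At day 7 the abundant skeletal muscle genes Tnnc2 and Acta1 averaged 13.34 and 13.37 in LG/J, against 12.95 and 13 in SM/J. Neither was called (limma adjusted p = 0.334 and 0.232). The list level ran from 9.39 to 9.63 on the LG/J arrays, against 8.98 to 9.07 on the SM/J arrays, and its part in the contractile difference was not tested. Without SM/J uninjured replicate 2, which carries more muscle signal than the other uninjured SM/J arrays (10.02 against 8.83 and 8.98), 23 members were higher.

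The matrix list had 18 of 60 members higher in LG/J and 9 lower (45% together). The shares of all genes were 19.5% and 11.4% (30.9% together). In uninjured ear 8 members of the list were higher and 11 lower. Fmod, fibromodulin of tendon and cartilage, was higher by 1.20 ± 0.14 (adjusted p = 8.86e-05). Cthrc1, a secreted protein of injured vessels and matrix, averaged 8.88 in LG/J and 10.37 in SM/J (-1.49 ± 0.18, adjusted p = 7.68e-05), and Pcolce2, an enhancer of collagen processing, was lower (-1.30 ± 0.16). Fn1, fibronectin of the provisional matrix, was lower (-1.40 ± 0.39, limma adjusted p = 0.0203, up to 0.0681 over the alternatives). Before injury Fn1, Cthrc1 and Pcolce2 already differed by -1.66, -1.28 and -1.58, while Fmod and Col1a1 differed by 0.34 and 0.29. Col1a1, the main collagen of dermis, had levels of 14.12, 13.87 and 14 in LG/J, against 12.73, 13.51 and 13.30 in SM/J (0.82 ± 0.28, adjusted p = 0.0477), a call lost under 12 of 24 alternatives. The higher members numbered 11 without LG/J day 7 replicate 1, 9 without SM/J day 7 replicate 1 and 11 without SM/J day 7 replicate 3; the lower members numbered 4 without LG/J day 7 replicate 2 or SM/J day 7 replicate 2.

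Cartilage genes were higher in LG/J for 9 of 30 members and lower for 1. Together these were 33.3% of the list, against 30.9% of all genes (19.5% higher and 11.4% lower). Col2a1, the fibrillar collagen of cartilage, had levels of 10.84, 11.13 and 11.23 in LG/J, against 8.22, 8.35 and 8.59 in SM/J (2.68 ± 0.18, adjusted p = 3.5e-07). Its further probes gave 2.30 ± 0.24 and 2.19 ± 0.21, so all 3 probes placed every LG/J array above every SM/J array. In uninjured ear these probes already differed by 3.32, 3.07 and 2.56. The interaction of the brightest was -0.64 and was not called (limma adjusted p = 0.43). Of the whole list, 5 members were higher and 4 lower in uninjured ear. Chad, chondroadherin, was higher by 1.30 ± 0.22 (adjusted p = 0.00141) and the proteoglycan gene Acan averaged 10.54 in LG/J and 9.81 in SM/J on its brightest probe (adjusted p = 0.0365; 0.342 on another), while Col9a1 averaged 8.48 in LG/J and 8.29 in SM/J (adjusted p = 0.619). Without LG/J day 7 replicate 2, 5 members were higher, and without LG/J uninjured replicate 4, 5 were lower.

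Proteases of the matrix were split, with 11 of 47 higher in LG/J and 10 lower (44.7% together). The shares of all genes were 19.5% higher and 11.4% lower (30.9% together). Adamts9, an aggrecan- and versican-cleaving protease, had levels of 9.74, 9.61 and 9.65 in LG/J, against 5.93, 6.20 and 6.32 in SM/J (3.51 ± 0.14, adjusted p = 1.66e-09), but a second probe near the background limit gave -0.23 ± 0.14 (adjusted p = 0.237). Adamts4 was higher by 1.43 ± 0.18. Before injury Adamts9 already differed by 3.4 on its brightest probe, and Adamts4 by 0.5. In uninjured ear 4 members of the list were higher and 5 lower. Mmp9, the gelatinase of neutrophils and migrating keratinocytes, had 10.03, 9.33 and 9.40 in LG/J, against 10.24, 9.78 and 9.85 in SM/J, and the strains overlapped (adjusted p = 0.268). Without SM/J day 7 replicate 1, 6 members were higher.

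Vessel genes were higher in LG/J for 11 of 41 members and lower for 5 (39% together). Of all genes, 19.5% were higher and 11.4% lower (30.9% together). In uninjured ear 8 members of the list were higher and 6 lower. Esm1, a secreted product of endothelial tip cells, was higher by 1.5 ± 0.22 and Pecam1 averaged 9.74 in LG/J and 9.23 in SM/J (limma adjusted p = 0.000469 and 0.0198). Cdh5, the other fixed endothelial marker, averaged 8.47 in LG/J and 8.12 in SM/J, with overlapping arrays (limma adjusted p = 0.222). Among the 5 lower genes were markers of lymphatic and sinusoidal endothelium: Lyve1 averaged 9.29 in LG/J and 10.69 in SM/J (-1.40 ± 0.12, adjusted p = 4.41e-06), and Stab2 and Mmrn1 were lower (-1.37 ± 0.20 and -1.24 ± 0.26). Before injury Lyve1, Stab2 and Mmrn1 already differed by -1.24, -1.9 and -1.48, and Esm1 and Pecam1 by 1.06 and 0.47. At day 7 the higher members numbered 5 without LG/J day 7 replicates 1 or 3 and 6 without SM/J day 7 replicates 1 or 2. Fat and lipid genes were higher for 15 of 45 members and lower for 5; the hormone genes Lep and Adipoq averaged 9.40 and 11.46 in LG/J, against 7.57 and 10.51 in SM/J (adjusted p = 0.00144 and 0.0105). For this list the higher members numbered 9 without LG/J day 7 replicates 2 or 3 and 8 without SM/J day 7 replicate 1, and the lower members 2 without LG/J day 7 replicate 2 and 3 without SM/J day 7 replicate 1.

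**Figure D4:**
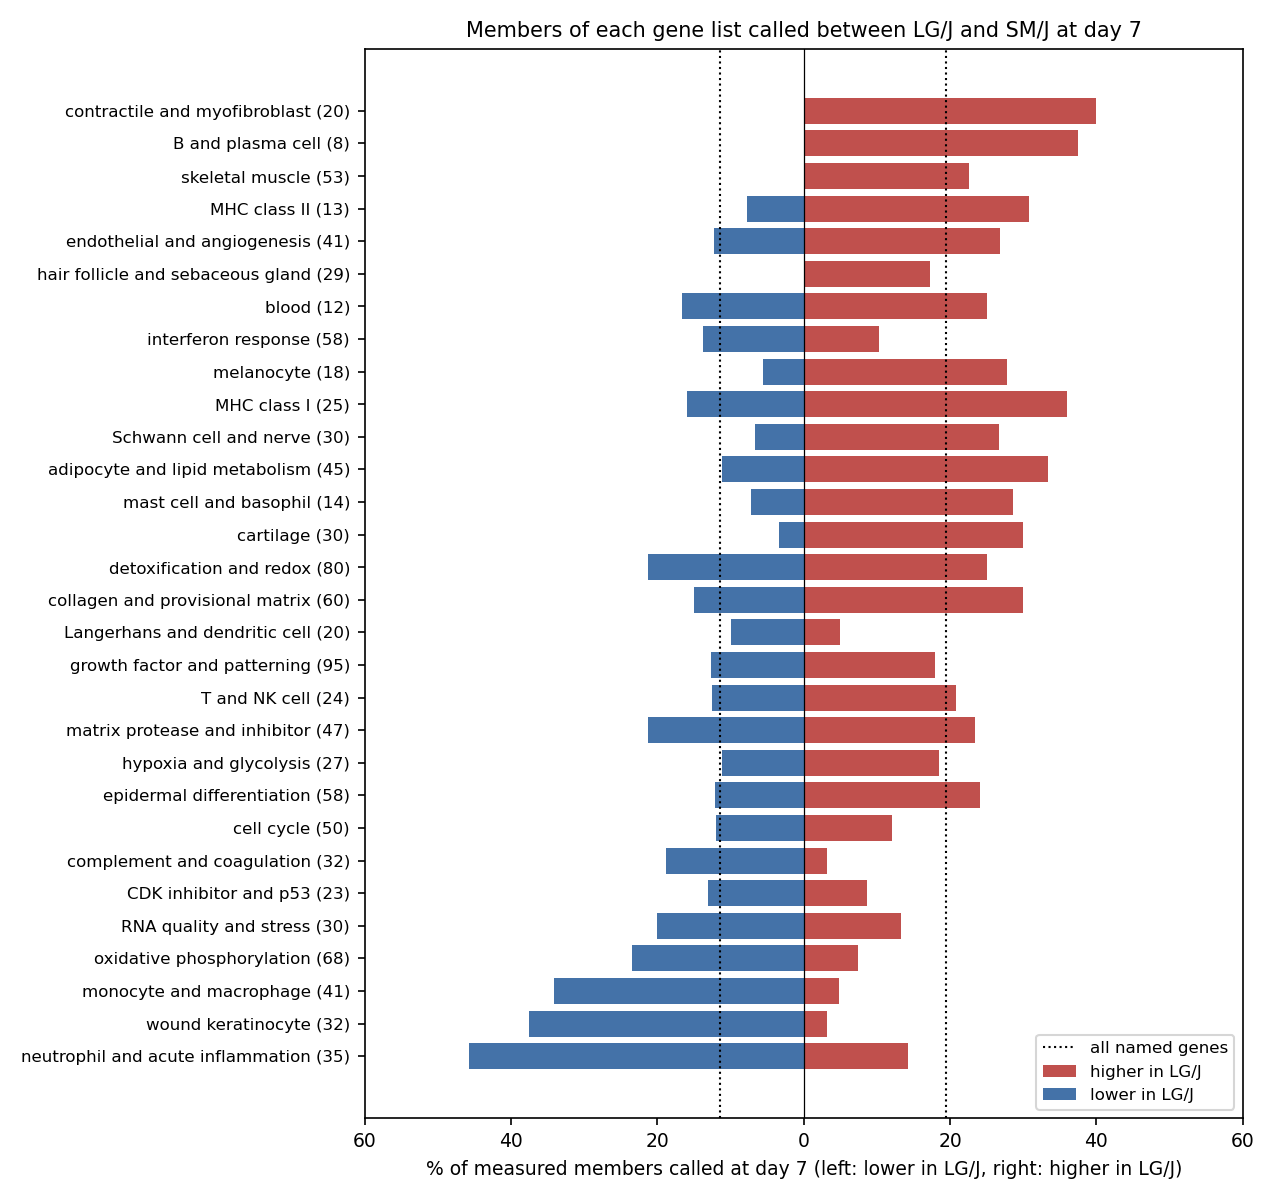
Percent of the measured members of each gene list (their number in brackets) that were called lower (blue, left) or higher (red, right) in LG/J than in SM/J at day 7, ordered by the median difference of the list. Dotted lines are the shares over all named genes (19.5% higher, 11.4% lower). The neutrophil, wound keratinocyte and macrophage lists lie at the bottom, with 16 of 35, 12 of 32 and 14 of 41 members lower in LG/J, and the contractile list at the top with 8 of 20 higher.

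The count of interferon response genes depended strongly on single arrays. The mean of the 58 members was 8.51, 8.60 and 8.35 on the LG/J arrays, against 9.27, 8.10 and 7.94 on the SM/J arrays, so SM/J day 7 replicate 1 stood above all LG/J arrays and its own replicates below them. With all arrays 6 members were higher in LG/J and 8 lower (24.1% together, against 30.9% of all genes). Without SM/J day 7 replicate 1, 23 were higher, and without LG/J day 7 replicates 1 or 2 or SM/J day 7 replicates 2 or 3 the higher members numbered 3, 0, 0 and 1. Gbp2b, an interferon-induced GTPase, had levels of 6.77, 6.74 and 6.73 in LG/J, against 11.13, 8.65 and 8.78 in SM/J (-2.77 ± 0.46, adjusted p = 0.00115). Ifi47, another such GTPase, had 6.66, 6.39 and 6.53 in LG/J, against 10.52, 8.56 and 8.21 in SM/J (-2.57 ± 0.42, adjusted p = 0.00105). For both genes SM/J day 7 replicate 1 was highest, and the other SM/J day 7 arrays also lay above all LG/J day 7 arrays. Before injury Gbp2b and Ifi47 already differed by -2.43 and -1.82. In uninjured ear 4 members of the list were higher in LG/J and 5 lower.

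Lymphocyte and mast cell lists were called about as often as all genes (30.9%). T and NK cell genes had 5 of 24 members higher in LG/J and 3 lower (33.3% together); Trat1, an adaptor of the T cell receptor, was at least 3.46-fold lower, and Prf1, perforin, was lower (-1.76 ± 0.34) on its brightest probe, and its dim second probe was not called (adjusted p = 0.18). Of the CD3 chains of the T cell receptor, Cd3g had levels of 8.59, 8.25 and 8.40 in LG/J, against 9.51, 9.59 and 9.26 in SM/J (-1.04, adjusted p = 0.0288), while Cd3d and Cd3e averaged 8.91 and 8.64 in LG/J, against 9.05 and 8.70 in SM/J (adjusted p = 0.818 and 0.924). Mast cell and basophil genes had 4 of 14 higher and 1 lower (35.7% together). The granule protease Cpa3 averaged 13.08 in LG/J and 13.19 in SM/J on its brightest probe (adjusted p = 0.752), beside the large difference of Tpsab1, but a further probe had 7.76, 7.30 and 7.96 in LG/J, against 10.51, 10.74 and 10.60 in SM/J (-2.94, adjusted p = 0.000102) and the third was not called (-0.12, adjusted p = 0.746). Cell cycle genes had 6 of 50 higher and 6 lower, below the share over all genes on the higher side, and the inhibitor Cdkn1a averaged 11.77 in LG/J and 11.79 in SM/J (adjusted p = 0.95). The cell cycle counts fell to 2 or 3 on leaving out any 1 day 7 array in at least 1 direction, and the lower members numbered 10 without LG/J uninjured replicate 4.

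Metabolic lists were split, and 46.2% of the detoxification and redox genes and 30.9% of the oxidative phosphorylation genes were called. Of all genes, 19.5% were higher in LG/J and 11.4% lower (30.9% together). Detoxification and redox genes had 20 of 80 higher in LG/J and 17 lower, with the glutathione transferase gene Gsta2 higher (1.95 ± 0.24, adjusted p = 9.95e-05) and Nfe2l2, the regulator of this program, lower (-1.75 ± 0.29, adjusted p = 0.00114). The lower members numbered 11 without LG/J day 7 replicate 2 or SM/J day 7 replicate 1 and 11 with median scaling. Oxidative phosphorylation genes had 5 of 68 higher and 16 lower, but with median scaling 10 were higher and 3 lower, and the list median went to 0.22 with that scaling, against -0.08 with quantile normalization. Its lower members numbered 8 without LG/J day 7 replicates 1 or 2, 7 without SM/J day 7 replicate 1 and 10 without SM/J day 7 replicate 2, and its higher members 2 or 3 without any 1 day 7 array, 10 without LG/J uninjured replicate 4 and 8 without SM/J uninjured replicate 2. For Hif1a, the oxygen-sensing transcription factor, the brightest probe had 5.56, 5.86 and 5.84 in LG/J, against 8.5, 8.78 and 8.81 in SM/J (-2.95 ± 0.62, adjusted p = 0.00513), whereas a second probe gave 0.27 ± 0.17 (adjusted p = 0.268). Pkm, pyruvate kinase, had 14.36, 14.23 and 14.29 in LG/J, against 13.08, 13.14 and 13.13 in SM/J (1.18 ± 0.11, adjusted p = 1.4e-05).

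Genes with several probes allow a strain difference to be read more than once. There were 5999 genes with 2 or more retained probes, and 3234 of them had at least 1 called probe at day 7. All probes were called higher for 254 genes and all lower for 228, whereas 183 genes (5.66% of those with a call) had probes called in opposite directions. Among the 2038 multi-probe genes whose brightest probe was called, every probe was called the same way for 482 (23.7%). Many of the other probes were dim. Over the 3698 genes with exactly 2 probes, the strain differences of the brighter and the dimmer probe had a Pearson r of 0.42, while the changes between day 7 and uninjured ear, averaged over the strains, had an r of 0.77 on the same probes. Among the 887 of these genes whose dimmer probe had a mean level above 8, the values were 0.60 and 0.95. The 2 quantities come from the same arrays and probes, and differ in size and spread, so the gap between the correlations is a description.

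**Figure D5:**
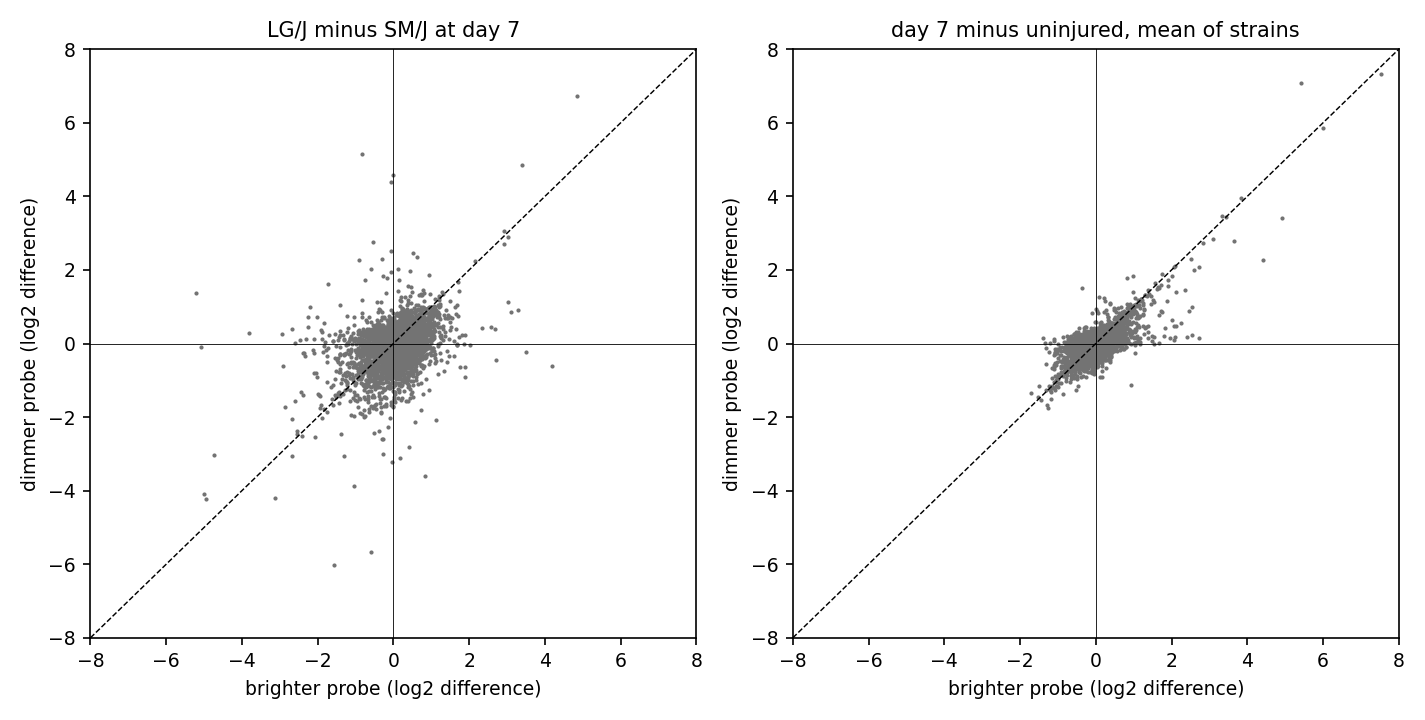
Log2 difference on the dimmer probe (vertical axis) against that on the brighter probe (horizontal axis) for the 3698 genes with exactly 2 retained probes, each point a gene. The left panel shows LG/J minus SM/J at day 7 (r = 0.42) and the right panel day 7 minus uninjured ear averaged over both strains (r = 0.77); points along an axis are genes with a difference on 1 probe only.

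Probes of 1 gene disagreed among the histocompatibility genes, which encode the highly variable peptide-presenting molecules. For H2-D1, a class I heavy chain, the brightest probe had 12.73, 12.90 and 13.12 in LG/J, against 14.13, 13.70 and 13.57 in SM/J. A further probe had 12.36, 12.28 and 12.51 in LG/J, against 5.62, 5.54 and 5.6 in SM/J, all below the background limit, which is at least 96.1-fold higher in LG/J. The 4 probes thus gave -0.88, -0.56, -2.94 and this large positive difference, each called (adjusted p = 0.00378, 0.045, 3.59e-06 and 1.47e-11). For H2-Ab1, a class II beta chain, 1 probe had 8.09, 7.48 and 8.37 in LG/J, against 13.17, 13.70 and 13.52 in SM/J (-5.49 ± 0.37, adjusted p = 3.62e-07), whereas the brightest probe gave 0.36 ± 0.24 (adjusted p = 0.279). Both probes of H2-Q6 were higher in LG/J (2.93 ± 0.26 and 2.70 ± 0.30), but class I genes resemble one another closely, and which of them a probe reports is uncertain. By brightest probe, 9 of 25 class I genes were higher and 4 lower (52% together). Of 13 class II genes 4 were higher and 1 lower (38.5% together). Over all genes 30.9% were called (19.5% higher and 11.4% lower). The counts of both lists carry the same doubt.

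The same was seen outside that family. Mgst1, a membrane glutathione transferase, had 11.98, 11.96 and 12.14 in LG/J, against 12.87, 12.93 and 12.77 in SM/J on its brightest probe, and 11.29, 11.11 and 11.42 in LG/J, against 6.41, 5.82 and 6.17 in SM/J on the other (-0.84 ± 0.26 and 5.14 ± 0.29). Fitm2, a protein of lipid droplet formation, had 10.77, 10.73 and 10.73 in LG/J, against 10.54, 10.45 and 10.76 in SM/J on its brightest probe, while another probe was below the limit in SM/J and at least 37.3-fold higher in LG/J. Sri, the calcium-binding protein sorcin, gave -0.28, 3.87 and -1.36 on its 3 probes. Isca1, an iron-sulfur cluster assembly protein, was lower (-0.60 ± 0.13) on 1 probe and at least 32.8-fold lower on the other. In each of these genes 1 probe separated the strains by far more than the others did. Cptp and Mettl14 from the list of largest differences belong here too: the second probe of Cptp was at least 2.35-fold higher in LG/J, and that of Mettl14, near the background limit in both strains, was at least 1.09-fold lower (adjusted p = 0.000277 and 0.0398). The second probe of 1110059E24Rik was below the limit in SM/J and not called (adjusted p = 0.715).

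For other genes all probes gave 1 picture. All 3 probes of Ctsc (-4.90, -4.49 and -4.75), all 3 of Chil3 (-5.15, -4.79 and -2.69), both of Lipa (-4.99 and -4.08) and both of Psmb6, a catalytic subunit of the proteasome (3.39 and 4.85), were called the same way. Both probes of Zfp979 were below the limit in LG/J and at least 20-fold and 14.2-fold lower. Both probes of Krtdap, Cxcl2, Gsdmc2 and Slc13a3 likewise gave 1 direction. Of the 17 multi-probe genes whose brightest probe differed at least 8-fold, all probes were called the same way for 12, and all probes differed at least 2-fold for 10. Most of the largest differences, such as Car13, Emb, Csrp1, Calm5, Sspn and Me1, rest on 1 retained probe and have no such second reading.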

How the data were processed

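Total RNA of ear tissue, extracted with Trizol and labelled with biotin per the labels' protocols, was measured on 12 Illumina bead arrays, of which the 6 day 7 arrays are the subject here. The deposited values are the authors' average signal intensity per probe on a linear scale for 45281 probes; BeadStudio is named in the submitters' processing notes, with no version. No between-array normalization is recorded for them, and neither detection p-values nor control probes nor probe sequences were used here. A deposited table of the whole series, with the authors' normalized intensity for 28845 probes, served as an alternative; its column medians were 178.51 to 178.59, and its normalization method and filter are not given in the sources used here.

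Intensities of all 12 arrays were background corrected together by the normexp model (offset 16), log2 transformed and then quantile normalized between arrays. Removing the dimmest 25% of probes left 33960. Probe names came from the platform annotation: 23604 probes had 1 gene name, 12 several and 21665 none, and a gene was represented by its brightest retained probe. Differences were fitted with limma 3.58.1 (statmod 1.5.0, R 4.3.3) over 4 group means, which share 1 estimate of spread, and p-values were adjusted over all retained probes; limits of significance below are an adjusted p of 0.05. An exact permutation test of 3 against 3 cannot go below 0.1. The fit was tested on simulated data. The background limit of an array is the 95% quantile of a normal curve set on the lower side of its signal distribution; where all 3 arrays of a strain lay below it, folds are lower bounds (interactions of such genes are fitted values and no bounds), computed from each array's higher value of limit and own signal. The number of arrays limits the precision. No 2 arrays were identical. Arrays that share a replicate number were not paired: their departures from the group mean correlated by -0.054 to -0.017 in the 3 day 7 pairs.

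Genes named were the 12 largest differences each way without overlap of arrays, the 6 largest interactions each way, up to 5 called members of each of 31 lists (1120 of 1377 entries measured), 8 genes whose probes disagreed most, 8 whose probes agreed, 8 genes below the limit in 1 strain, and fixed checks such as Mmp9, Tnc and Xist (Mki67 had no retained probe). Cell type markers were fixed by a separate rule. The comparison, the members and the lists were chosen with earlier results of these data known. Non-called genes set beside a list are checks or markers. The alternatives are given in the closing section.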

Additional observations from a re-analysis of the deposited data

Results flagged for a closer look

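The strain difference of 13 of the named genes differed between day 7 and uninjured ear by limma's interaction test, the day 7 difference minus the uninjured difference on the log2 scale. It was negative for Gsdmc2 (-3.49), Cstdc4 (-3.33), Cxcl2 (-3.08), Prl2c4 (-3), Prl2c3 (-2.79), Saa3 (-2.6), Chil3 (-2.41), Cd14 (-2.08) and S100a7a (-1.52). It was positive for Mcpt8 (2.3), Slc13a3 (2.08), Grm4 (1.41) and Prss46 (1.22). These are values of the brightest probe. On further probes the interaction was not called for Chil3 (limma adjusted p = 0.0669 and 0.607) and Slc13a3 (0.0669). It was called on the second probes of Cxcl2 (0.0165) and Gsdmc2 (0.0251).

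Cxcl2, Cstdc4, Prl2c3 and Prl2c4 had no called strain difference in uninjured ear, where their levels in both strains were below the background limit, so the interaction equals nearly the day 7 difference. Saa3 and S100a7a also had none there (0.24 and -0.18), whereas Chil3 and Gsdmc2 were already called lower in LG/J (adjusted p = 3.1e-05 and 0.0148): they averaged 5.51 and 5.32 in LG/J, below the background limit on all 3 arrays, against 8.25 and 6.57 in SM/J. Grm4 had levels of 8.32, 8.62 and 8.48 in LG/J at day 7, against 6.82, 6.89 and 7.30 in SM/J, and 7.88 to 8.58 in LG/J, against 8.01 to 8.40 in SM/J, in uninjured ear, so the SM/J arrays at day 7 stood below the rest. Prss46 had levels of 7.06 to 7.28 in LG/J at day 7, against 6.11 to 6.33 in SM/J, with all uninjured arrays below the limit. The calls held under all 23 alternatives for Gsdmc2, Cstdc4, Prl2c3 and Prl2c4, and under 8 to 14 alternatives for the others.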

How the results depend on the processing

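The day 7 comparison called 8541 probes. Array weights gave 13299, omitting both replicate 4 of uninjured LG/J and replicate 2 of uninjured SM/J 13177, and an adjusted p under 0.01 gave 3443; leaving out 1 array gave 4803 to 11864. In uninjured ear 7326 probes became 15479 with array weights, 3794 with the replicate block and 13289 without those 2 arrays, with 3464 to 12078 on leaving out 1 array. The interaction called 117 probes, against 71 with median scaling, 1623 with array weights, 14 with the replicate block and 2345 without the 2 arrays, with 17 to 501 on leaving out 1 array; 56.7% of the 2345 and 37% of the 1623 were positive. The fit with the replicate number as a block, which does not pair the samples here, called 10082 probes at day 7; over 10 pairs of arrays with the same number the departures from the group mean correlated by -0.088 to 0.264. The authors' normalized table called 8752 of its 28845 probes.

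Of 177 named genes called at day 7, 137 kept their call and direction under every alternative; 33 lost the call on leaving out at least 1 array and 20 changed under at least 1 of the others. Averaging all retained probes in place of the brightest turned H2-D1 to 0.6, Mgst1 to 2.15, H2-Ab1 to -1.98 and Sri to 0.74; the probes of each of these genes differ in sign. Median scaling moved the share of called probes that were higher in LG/J to 58.8% from 52.2%. With 3 arrays per group, differences within the spread between arrays are not detectable, and levels near the background limit have no order. Probes with no gene name were called less often (15%) than named probes (29.7%); the cause was not tested.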

Other observations

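Lists of other tissues of the ear are set beside all genes, of which 30.9% were called at day 7 and 19.5% were higher in LG/J. Of the pigment cell and nerve lists 33.3% each were called, of the hair follicle list 17.2% and of the blood list 41.7%. The hair follicle share, all of it higher, was below that of all genes. Pigment cell genes were higher in LG/J for 5 of 18 members and lower for 1. The melanosome genes Oca2 and Dct were higher, Oca2 at least 2.41-fold and Dct by 1.09 ± 0.21 (limma adjusted p = 0.000307 and 0.00323). Tyrp1, another fixed pigment cell marker, averaged 10.96 in LG/J and 10.52 in SM/J and was not called (limma adjusted p = 0.175). In uninjured ear 7 members of the list were higher and 1 lower. Schwann cell and nerve genes were higher for 8 of 30 and lower for 2, among them the myelin gene Mag (1.22 ± 0.17, adjusted p = 0.000347) and the Schwann cell dystrophin relative Drp2 (1.07 ± 0.13, adjusted p = 0.000106; a dim further probe was not called, adjusted p = 0.248). Their higher members numbered 4 without LG/J day 7 replicate 2 and 5 without LG/J day 7 replicate 1 or SM/J day 7 replicates 1 or 2, and 5 were lower without LG/J uninjured replicate 4. Hair follicle and sebaceous gland genes had 5 of 29 higher and 0 lower by limma (10 and 1 at an unadjusted p under 0.05), such as the hair cuticle genes S100a3 (1.70 ± 0.30) and Krt84 (1.49 ± 0.29), and 8 higher without LG/J uninjured replicates 1 or 4; the inner root sheath keratin Krt71 was above the limit on 2 of 6 arrays. Blood genes had 3 of 12 higher and 2 lower: Hbb-b2, a beta globin with close relatives, had levels of 9.74, 10.01 and 10.11 in LG/J, against 7.02, 7.05 and 6.14 in SM/J (3.22 ± 0.40, adjusted p = 0.00011), while the alpha globin Hba-a1 averaged 14.84 in LG/J and 13.97 in SM/J (adjusted p = 0.0669). Leaving out 1 array gave 1 to 5 higher blood genes.

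Growth factor and patterning genes had 17 of 95 higher in LG/J and 12 lower, close to the shares of all genes (19.5% higher and 11.4% lower). Fzd2, a Wnt receptor, had levels of 9.80, 9.54 and 9.75 in LG/J, against 7.46, 8.16 and 7.69 in SM/J (1.93 ± 0.32, adjusted p = 0.00117). Fgf7, the fibroblast factor for keratinocytes, had 8.57, 8.20 and 8.65 in LG/J, against 9.78, 9.97 and 9.67 in SM/J (-1.34 ± 0.19, adjusted p = 0.000432). Tgfbr1, a receptor of transforming growth factor beta, was lower (-0.55 ± 0.16), a call lost under 5 of 24 alternatives. The higher members numbered 10 without LG/J day 7 replicate 1 and 9 without SM/J day 7 replicate 1, and the lower members 6 without LG/J day 7 replicate 2 or SM/J day 7 replicates 1 or 2 and 4 with median scaling. Complement and coagulation genes had 1 of 32 higher and 6 lower, hypoxia and glycolysis genes 5 of 27 higher and 3 lower, CDK inhibitor and p53 genes 2 of 23 higher and 3 lower, B and plasma cell genes 3 of 8 higher and 0 lower (4 and 0 at an unadjusted p under 0.05 in limma), Langerhans and dendritic cell genes 1 of 20 higher and 2 lower, and RNA quality and stress genes 4 of 30 higher and 6 lower. On leaving out 1 array the higher counts of these lists ran over 1 to 3, 2 to 7, 1 to 2, 2 to 4, 0 to 2 and 1 to 4, and the lower counts over 5 to 7, 2 to 7, 2 to 4, 0 to 0, 1 to 2 and 3 to 8.

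Some genes with an interaction call outside the named ones belong to families with close relatives, and were picked here after their values were seen. Klra4 and Klra16, of the Ly49 receptors of NK cells, were below the background limit on all 3 LG/J arrays and at least 3.12-fold and 3.3-fold lower in LG/J at day 7 (limma adjusted p = 1.06e-05 and 1.29e-05). Also lower were the tissue kallikrein Klk1 and its relative Klk1b5 (-2.29 and -1.71, adjusted p = 3.84e-05 and 2.52e-05) and Acod1, the itaconate-forming enzyme of activated macrophages (-2.55, adjusted p = 6.17e-05). Scgb2b27, a secretoglobin, was higher in LG/J by 1.54 at day 7, and in uninjured ear averaged 9.30 in LG/J and 5.38 in SM/J, all 3 SM/J arrays there being below the limit.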
